A study of Mus musculus with 2 samples.

Results

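The genes described here encode the enzymes of serine synthesis, of the folate and methionine cycles, and of purine and pyrimidine nucleotide synthesis and salvage. They were chosen by symbol, from a list of 33 enzymes of these pathways, and all 33 were found among the 46095 entries of the deposited count table. The RNA came from mouse acute myeloid leukaemia cells on the C57BL/6 background, at an age of 8 weeks per the labels, sorted from bone marrow as positive for Mac1 and KIT and called leukaemia-initiating cells by the submitters. There was 1 library labelled P2x1-KO, called KO-labelled below, and 1 labelled P2x1-WT and wild type, called WT-labelled below. The protocol text calls the same groups P2X1-KD and P2X1-Scr, which it does not explain. The oncogene that drives the leukaemia, how P2rx1 was targeted and whether animals were pooled are not stated in the labels. With 1 library per group, no difference below has a replicate check, and every interval covers counting error only.

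The KO-labelled library held 9447894 counts and the WT-labelled library 14658620. P2rx1, the targeted gene, had 45 counts in the KO-labelled library and 27 in the WT-labelled library, so it was 2.93-fold higher in the KO-labelled library (exact 95% interval 1.78 to 4.90). Its transcript level therefore does not bear out the label. It averaged 3.40 CPM, under the 5 CPM used for measured genes below, and how it was targeted is not stated. Directions below are stated between the labelled libraries. Values are CPM, counts scaled to a common library size with TMM normalisation, a fold is the ratio of CPM, and a log2 difference is that of log2(CPM + 0.5) in the KO-labelled library minus the WT-labelled library. The sort markers were present in both: Itgam, which encodes part of Mac1, had 504 CPM in the KO-labelled library and 307 CPM in the WT-labelled library, and Kit had 19.9 and 13.3 CPM.

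Dividing cells make nucleotides from small precursors. Serine, made from a glycolytic intermediate, donates a carbon to folate when it is converted to glycine, and folate carries this carbon to the purine ring, to thymidylate and, through the methionine cycle, to methylation reactions. Purine synthesis builds the ring on a ribose phosphate and ends at inosine monophosphate (IMP), from which separate branches lead to adenine and guanine nucleotides. Pyrimidine synthesis forms the ring from glutamine, bicarbonate and aspartate and ends at cytidine triphosphate. Salvage enzymes recover free bases and nucleosides instead. Dihydroorotate dehydrogenase, encoded by Dhodh, is known as a target whose inhibition drives differentiation of myeloid leukaemia cells, and antifolates and nucleoside analogues are standard leukaemia drugs.

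Most members, 26 of the 32 measured, lay within 2-fold between the libraries, while 5 enzymes were lower by 2-fold or more and 1 was higher by 2-fold or more in the KO-labelled library. Of the 33 members, 32 averaged 5 CPM or more, which is the level a gene needed to be counted as measured, and Mat2a, at 4.96 CPM, was just under it. Lower by any amount were 19 of the 32 (54.2% of all genes), and lower by 1.5-fold or more 6 (24.2% of all genes). Lower by 2-fold or more were Ctps, Pfas, Mthfd1l, Shmt1 and Ppat, 15.6% of the 32, while 10.6% of all 10483 genes at that level were lower by 2-fold or more. Higher by 2-fold or more was Aprt, 3.12% of the 32, against 12.1% of all genes. The whole interval lay beyond 2-fold for Ctps, Pfas and Mthfd1l among those lower (6.21% of all genes) and for Aprt among those higher (9.37% of all genes).

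The median log2 difference of the 32 members was -0.21, beside -0.082 for all measured genes. Their differences ran from -1.35 for Ctps to 1.08 for Aprt, with an interquartile range of -0.44 to 0.24, beside -0.56 to 0.47 for all genes. With TMM scaling most members differed from no change by more than counting error. The interval lay wholly below no change for 18 members (43.7% of all genes) and wholly above it for 9 (35.9% of all genes). Together the members took 0.305% of the counts in the KO-labelled library (exact 95% interval 0.301 to 0.308) and 0.347% in the WT-labelled library (0.344 to 0.350). Without Aprt, the most abundant member, the shares were 0.250% in the KO-labelled library and 0.318% in the WT-labelled library. On the TMM scale the summed levels were 3240 CPM in the KO-labelled library and 3265 CPM in the WT-labelled library.

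**Figure D1:**
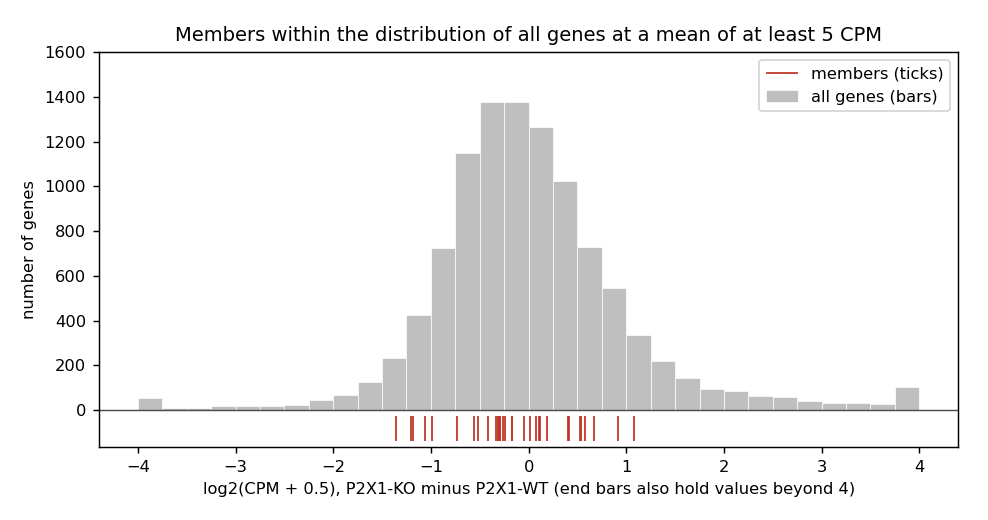
Number of genes by log2 difference, log2(CPM + 0.5) in the KO-labelled library minus the WT-labelled library, for the 10483 measured genes (bars of width 0.25, the end bars also holding 45 genes below -4 and 71 above 4), with the 32 members as red ticks. The ticks lie between -1.35 and 1.08, inside the bulk of the distribution.

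The scaling of the libraries sets the zero of these differences. Scaling by total counts lowered every log2 ratio by 0.18, upper-quartile scaling raised it by 0.083, and median-of-ratios size factors moved it by 0.0012. The direction of 25 of the 33 members was the same under every scaling tried and after a correction for exon length and GC content. Directions that turned are named with the gene below. Upper-quartile scaling left 3 members lower by 2-fold or more, as Shmt1 and Ppat came to log2 differences of -0.98 and -0.91, and put Psph beside Aprt among those higher by 2-fold or more. With total counts Aprt came to a log2 difference of 0.90, short of 2-fold.

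**Figure D2:**
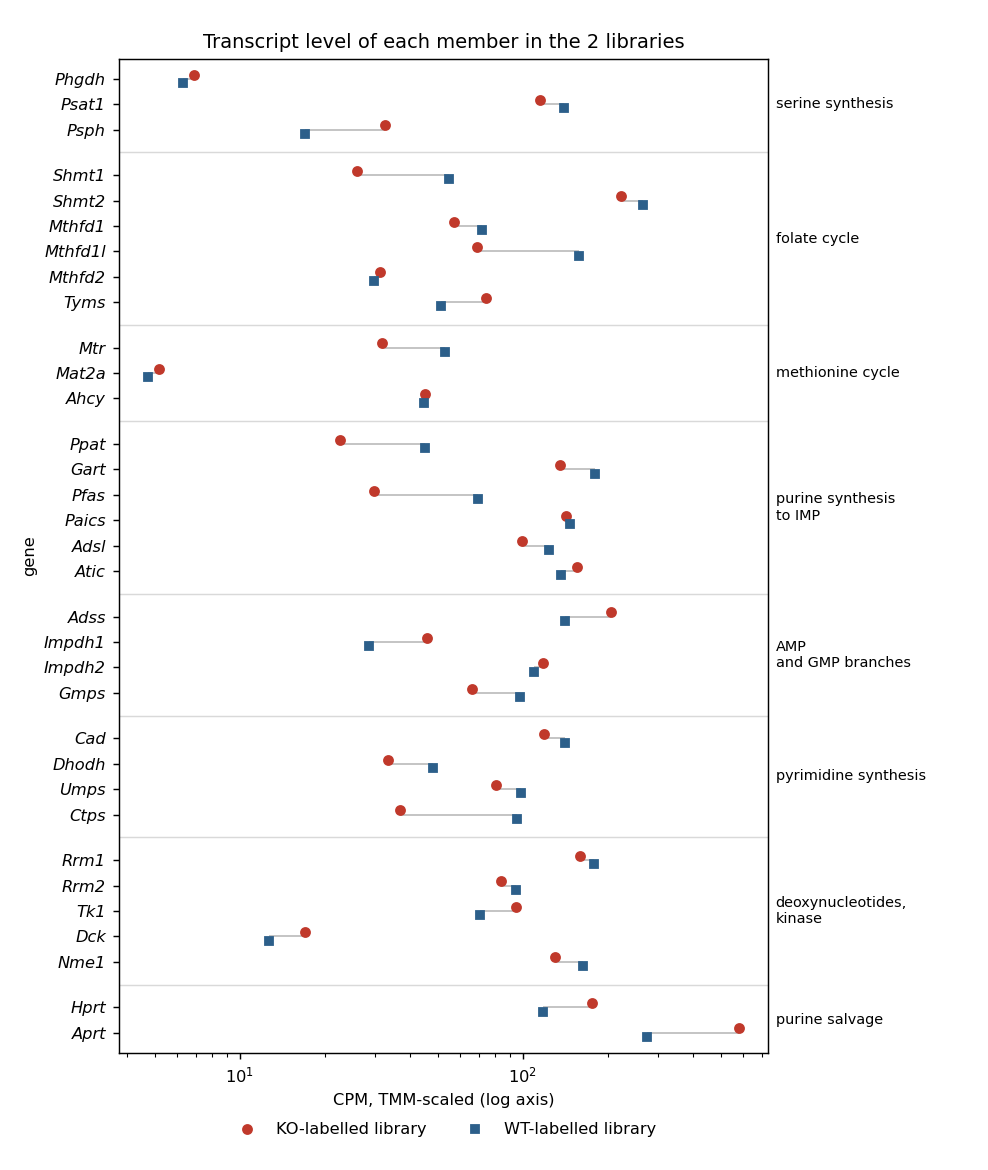
Level of each of the 33 members in CPM (log axis), grouped by pathway step, with the KO-labelled library as red circles, placed just above the WT-labelled library as blue squares. Levels ran from Mat2a, at 5.18 CPM in the KO-labelled library and 4.75 CPM in the WT-labelled library, to Aprt, at 579 and 274 CPM; the gaps are widest for Ctps, Pfas, Mthfd1l, Shmt1, Ppat and Aprt.

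The 3 enzymes of serine synthesis did not share a direction. Phgdh, encoding phosphoglycerate dehydrogenase, which commits carbon to serine, had only 61 counts in the KO-labelled library and 98 in the WT-labelled library, or 6.87 and 6.29 CPM (ratio 1.09, interval 0.780 to 1.52), and its direction turned with total counts. Psat1, the transaminase of the middle step, had 115 CPM in the KO-labelled library and 140 CPM in the WT-labelled library, 1.22-fold lower (1.13 to 1.32). Psph, the phosphatase that releases serine, had 32.5 CPM in the KO-labelled library and 17.1 CPM in the WT-labelled library, 1.91-fold higher (1.61 to 2.26). Psph shares 452 exon bases with Cct6a on the opposite strand, and since the strand setting of the counting is not given, reads there cannot be assigned with certainty. In both libraries the entry enzyme's transcript thus had far fewer reads than that of the step that follows it. Per kilobase of exon, Phgdh stood at 2.76 and 2.53 CPM and Psat1 at 26.9 and 32.9 CPM in the KO-labelled and WT-labelled libraries.

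In the folate cycle, 2 of 6 enzymes were lower by 2-fold or more in the KO-labelled library. Mthfd1l, the mitochondrial synthetase that releases formate for export to the cytosol, had 613 counts in the KO-labelled library and 2451 in the WT-labelled library, or 69.0 and 157 CPM, 2.28-fold lower (2.08 to 2.49). Shmt1, the cytosolic serine hydroxymethyltransferase, had 231 and 854 counts, or 26.0 CPM in the KO-labelled library and 54.8 CPM in the WT-labelled library, 2.11-fold lower (1.82 to 2.45). Of its exon bases, 184 are shared with Smcr8 on the opposite strand. The promoter windows of these genes, from 250 bases before to 50 after the RefSeq start on GRCm38.p6 and 5′ to 3′ on the gene's strand, are shown because both genes were among those lower; capitals mark CCAAT or its reverse complement ATTGG, which is present in Shmt1 and absent from the Mthfd1l window.
Shmt1, chr11:60811216-60811515, minus strand: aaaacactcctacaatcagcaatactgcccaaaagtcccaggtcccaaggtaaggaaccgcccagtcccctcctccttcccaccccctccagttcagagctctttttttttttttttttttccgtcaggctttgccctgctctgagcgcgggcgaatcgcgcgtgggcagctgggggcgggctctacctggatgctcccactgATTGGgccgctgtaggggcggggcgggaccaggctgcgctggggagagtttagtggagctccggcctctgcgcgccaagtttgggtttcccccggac
Mthfd1l, chr10:3972825-3973124, plus strand: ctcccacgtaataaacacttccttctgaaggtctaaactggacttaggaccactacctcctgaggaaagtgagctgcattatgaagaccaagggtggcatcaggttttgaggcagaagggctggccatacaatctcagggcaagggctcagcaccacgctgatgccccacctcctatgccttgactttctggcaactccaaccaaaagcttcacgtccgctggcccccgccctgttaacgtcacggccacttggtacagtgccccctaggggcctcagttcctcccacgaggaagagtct

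The remaining folate enzymes differed less. Shmt2, the mitochondrial hydroxymethyltransferase and main entry of serine carbon into folate, had 221 CPM in the KO-labelled library and 265 CPM in the WT-labelled library, 1.20-fold lower (1.13 to 1.26). Mthfd1, the trifunctional cytosolic enzyme, had 57.3 CPM in the KO-labelled library and 71.5 CPM in the WT-labelled library, 1.25-fold lower (1.12 to 1.39). Mthfd2, the mitochondrial dehydrogenase and cyclohydrolase of embryonic and tumour cells, had 31.3 CPM in the KO-labelled library and 29.8 CPM in the WT-labelled library, a ratio of 1.05 (0.903 to 1.22) that turned to lower with total counts. In the other direction, Tyms, thymidylate synthase, had 74.1 CPM in the KO-labelled library and 51.3 CPM in the WT-labelled library, 1.44-fold higher (1.30 to 1.60). After the length and GC correction it was 1.83-fold higher. Within the mitochondrial route Mthfd1l and Mthfd2 thus did not differ alike. The count ratio of Mthfd1l to Mthfd2, which does not depend on scaling, was 2.21 in the KO-labelled library and 5.28 in the WT-labelled library, 2.40-fold lower (2.01 to 2.86).

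The methionine cycle regenerates the methyl donor S-adenosylmethionine. Mtr, the vitamin B12-dependent methionine synthase that takes its methyl group from folate, had 31.7 CPM in the KO-labelled library and 53.2 CPM in the WT-labelled library, 1.68-fold lower (1.46 to 1.93). Its exon length is 8524 bases, and after the length and GC correction it was 1.28-fold lower. Ahcy, which hydrolyses S-adenosylhomocysteine, had 45.3 CPM in the KO-labelled library and 44.6 CPM in the WT-labelled library, a ratio of 1.01 (0.894 to 1.15), lower both with total counts and after that correction. Mat2a, which forms S-adenosylmethionine, had few reads, at 46 counts in the KO-labelled library and 74 in the WT-labelled library, a ratio of 1.09 (0.738 to 1.60) with its direction turned by total counts. Mat2b, its regulatory subunit, had 912 counts in the KO-labelled library and 1408 in the WT-labelled library. Particl, an RNA opposite Mat2a that shares 508 of its exon bases, had 0 and 2 counts.

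De novo purine synthesis was lower at its entry and at a middle step and slightly higher at its last enzyme, Atic. Ppat, the amidophosphoribosyltransferase that commits ribose phosphate to the pathway, had 200 counts in the KO-labelled library and 705 in the WT-labelled library, or 22.5 and 45.2 CPM, 2.01-fold lower (1.71 to 2.36). Pfas, the amidotransferase known as FGAM synthase, had 265 counts in the KO-labelled library and 1079 in the WT-labelled library, or 29.8 and 69.2 CPM, 2.32-fold lower (2.03 to 2.66). Both came within 2-fold after the length and GC correction, Ppat at 1.76-fold and Pfas at 1.84-fold lower. Gart, the trifunctional enzyme that uses folate carbon, was 1.33-fold lower (1.24 to 1.43), at 135 CPM in the KO-labelled library and 180 CPM in the WT-labelled library. Adsl, adenylosuccinate lyase, which acts here and again on the way to AMP, was 1.25-fold lower (1.15 to 1.35). Paics, which carries the carboxylase and the succinocarboxamide synthetase, had 142 CPM in the KO-labelled library and 147 CPM in the WT-labelled library, 1.03-fold lower (0.963 to 1.11), and stood slightly higher with upper-quartile scaling and after the length and GC correction. Atic, the bifunctional enzyme of the last steps, had 155 CPM in the KO-labelled library and 137 CPM in the WT-labelled library, 1.14-fold higher (1.06 to 1.22), and 1.42-fold higher after the length and GC correction.

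Ppat and Paics are neighbours on chromosome 5 that are read in opposite directions, with RefSeq starts 276 bases apart and 272 exon bases in common in GENCODE. They differed from each other in this pair, which was chosen after the values were seen: the count ratio of Paics to Ppat was 6.33 in the KO-labelled library and 3.25 in the WT-labelled library, 1.95-fold higher (1.64 to 2.32). Their promoter windows, shown for this reason with the same layout, do not overlap; capitals mark CACGTG and CCAAT in the Paics window and GCGGGAAA, the reverse complement of the E2F-type motif TTTCCCGC, at 2 places in the Ppat window.
Ppat, chr5:76951529-76951828, minus strand: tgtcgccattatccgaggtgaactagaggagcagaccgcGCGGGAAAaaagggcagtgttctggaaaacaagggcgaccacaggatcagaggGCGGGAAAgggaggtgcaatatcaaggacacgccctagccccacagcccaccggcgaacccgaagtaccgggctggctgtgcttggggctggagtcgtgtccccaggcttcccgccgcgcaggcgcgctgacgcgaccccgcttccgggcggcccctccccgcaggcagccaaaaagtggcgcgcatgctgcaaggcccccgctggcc
Paics, chr5:76951052-76951351, plus strand: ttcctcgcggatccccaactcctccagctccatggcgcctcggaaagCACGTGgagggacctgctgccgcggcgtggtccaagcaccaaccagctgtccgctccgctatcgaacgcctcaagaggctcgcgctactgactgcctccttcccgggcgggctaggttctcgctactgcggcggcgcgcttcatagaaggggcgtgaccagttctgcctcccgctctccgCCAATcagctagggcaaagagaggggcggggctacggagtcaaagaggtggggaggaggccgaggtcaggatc

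From IMP onward, the branch enzymes were level or higher except for Gmps. Adss, which starts the branch to AMP, had 204 CPM in the KO-labelled library and 140 CPM in the WT-labelled library, 1.46-fold higher (1.37 to 1.55). After the length and GC correction it was 1.71-fold higher. Impdh1 and Impdh2 are isoenzymes of IMP dehydrogenase, the entry to guanine nucleotides. Impdh1 had 45.7 CPM in the KO-labelled library and 28.6 CPM in the WT-labelled library, 1.60-fold higher (1.39 to 1.83). Impdh2, the more abundant isoenzyme per kilobase of exon, had 118 CPM in the KO-labelled library and 109 CPM in the WT-labelled library, a ratio of 1.08 (0.995 to 1.16) that turned to lower with total counts. The count ratio of Impdh1 to Impdh2 was 0.389 in the KO-labelled library and 0.261 in the WT-labelled library, 1.49-fold higher (1.27 to 1.74). Gmps, GMP synthetase, which completes the guanine branch, had 66.1 CPM in the KO-labelled library and 97.6 CPM in the WT-labelled library, 1.48-fold lower (1.34 to 1.63), and 1.11-fold lower after the length and GC correction of its 8105 exon bases.

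All 4 enzymes of pyrimidine synthesis were lower in the KO-labelled library, most of all the last, although Cad turned to higher after the length and GC correction. Ctps, CTP synthase, which aminates UTP, had 327 counts in the KO-labelled library and 1480 in the WT-labelled library, or 36.8 and 94.9 CPM, 2.58-fold lower (2.29 to 2.92), and remained 2.33-fold lower after the length and GC correction. Dhodh, the mitochondrial dehydrogenase, had 33.4 CPM in the KO-labelled library and 48.2 CPM in the WT-labelled library, 1.44-fold lower (1.26 to 1.65). Umps, which forms UMP from orotate, had 80.5 CPM in the KO-labelled library and 98.4 CPM in the WT-labelled library, 1.22-fold lower (1.12 to 1.34). Cad, the trifunctional protein that opens the pathway, had 119 CPM in the KO-labelled library and 141 CPM in the WT-labelled library, 1.19-fold lower (1.10 to 1.28), and was 1.04-fold higher after the length and GC correction. The window at the upstream RefSeq start of Ctps, the member with the lowest log2 difference, held none of the motifs searched.
Ctps, chr4:120570227-120570526, minus strand: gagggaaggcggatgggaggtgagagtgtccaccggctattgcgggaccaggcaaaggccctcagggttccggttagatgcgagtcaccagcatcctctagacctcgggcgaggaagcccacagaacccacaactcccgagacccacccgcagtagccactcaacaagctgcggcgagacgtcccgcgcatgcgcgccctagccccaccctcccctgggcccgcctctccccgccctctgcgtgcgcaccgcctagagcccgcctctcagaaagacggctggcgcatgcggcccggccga

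Enzymes that supply deoxynucleotides lay within 1.5-fold in either direction. Before the length and GC correction Rrm1 and Rrm2, the large and small subunits of ribonucleotide reductase, kept nearly the same proportion. Rrm1 had 159 CPM in the KO-labelled library and 178 CPM in the WT-labelled library, 1.12-fold lower (1.05 to 1.20), and was higher after the length and GC correction. Rrm2 had 83.5 CPM in the KO-labelled library and 94.2 CPM in the WT-labelled library, 1.13-fold lower (1.03 to 1.23). With the correction Rrm1 was 1.23-fold higher and Rrm2 1.07-fold lower, so the proportion was not kept. The nucleoside salvage kinases were higher. Tk1, the S-phase thymidine kinase, had 94.2 CPM in the KO-labelled library and 70.8 CPM in the WT-labelled library, 1.33-fold higher (1.21 to 1.46). Dck, deoxycytidine kinase, which activates cytarabine, had 151 counts in the KO-labelled library and 198 in the WT-labelled library, or 17.0 and 12.7 CPM, 1.34-fold higher (1.08 to 1.66). Nme1, a nucleoside diphosphate kinase, was 1.26-fold lower (1.17 to 1.35), at 129 CPM in the KO-labelled library and 163 CPM in the WT-labelled library. Nme1 and its close paralog Nme2 are similar and adjacent and share a readthrough gene model, so their reads may have been exchanged. Nme2 went the other way, at 321 CPM in the KO-labelled library and 216 CPM in the WT-labelled library, 1.49-fold higher (1.42 to 1.56). After the length and GC correction Nme2 was 1.08-fold higher. The direction of Nme1 is therefore uncertain.

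Both purine salvage enzymes were higher in the KO-labelled library, and they were the most abundant members per kilobase of exon in both libraries. Aprt, which recovers adenine, had 5143 counts in the KO-labelled library and 4271 in the WT-labelled library, or 579 and 274 CPM, 2.11-fold higher (2.03 to 2.20). Hprt, which recovers hypoxanthine and guanine, had 1562 counts in the KO-labelled library and 1830 in the WT-labelled library, or 176 and 117 CPM, 1.498-fold higher (1.40 to 1.60). They have the fewest exon bases of the members, 1615 in Aprt and 1289 in Hprt. After the length and GC correction Aprt was 1.69-fold and Hprt 1.13-fold higher. The Aprt window, shown because Aprt was the member furthest above no change, held none of the motifs.
Aprt, chr8:122576858-122577157, minus strand: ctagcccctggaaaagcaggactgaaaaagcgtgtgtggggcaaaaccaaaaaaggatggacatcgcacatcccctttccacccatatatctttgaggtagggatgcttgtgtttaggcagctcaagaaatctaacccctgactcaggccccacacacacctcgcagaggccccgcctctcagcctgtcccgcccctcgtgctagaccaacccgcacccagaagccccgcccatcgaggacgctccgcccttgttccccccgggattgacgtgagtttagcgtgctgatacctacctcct

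**Figure D3:**
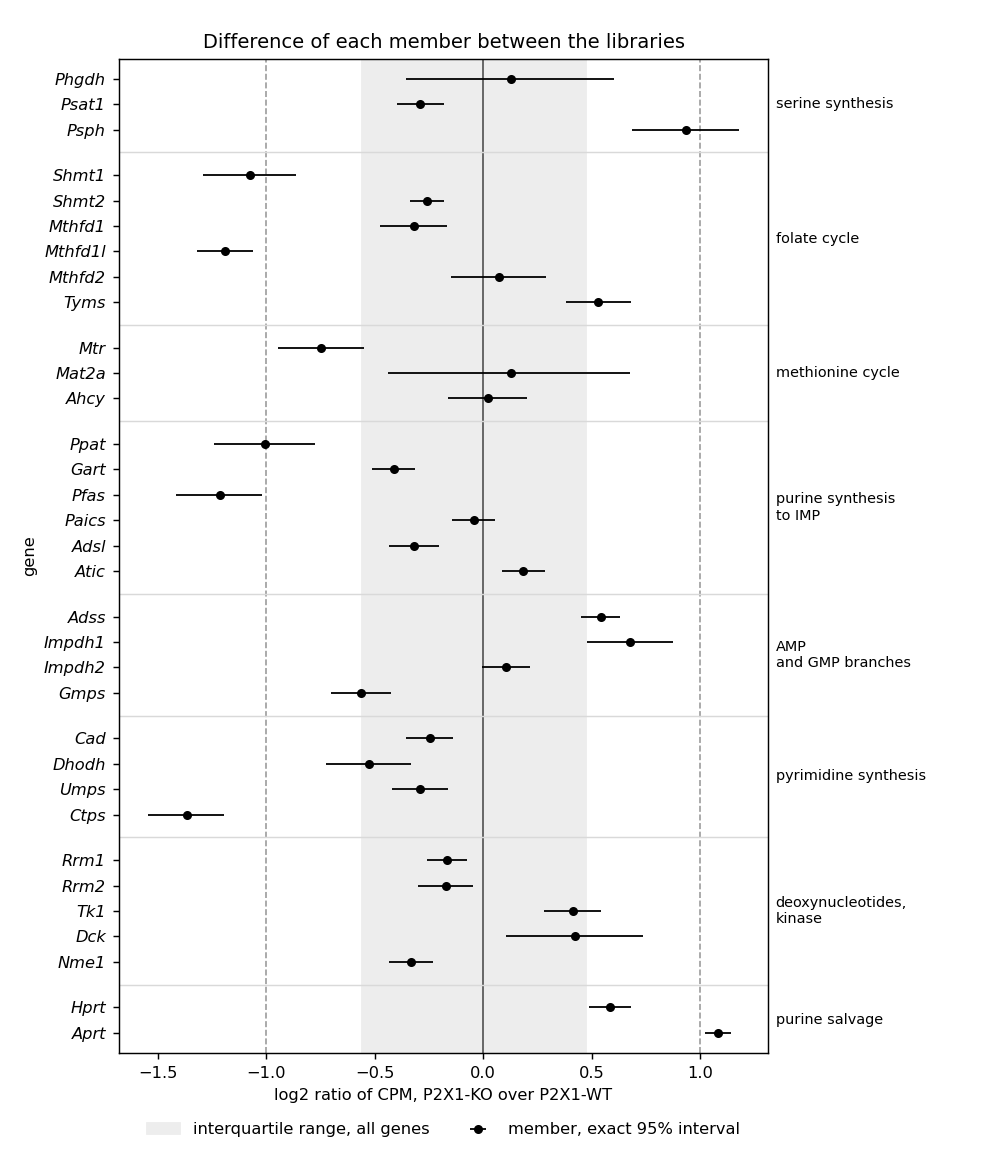
Log2 ratio of CPM, KO-labelled library over WT-labelled library, for each member with its exact 95% interval (counting error only), by pathway step; dashed lines stand at 2-fold and the grey band is the interquartile range of all genes. Ctps, Mthfd1l and Pfas lie wholly left of the lower line and Aprt wholly right of the upper one, while the 4 pyrimidine enzymes all lie left of 0 (Cad right of it only after the length and GC correction, not drawn) and both salvage enzymes right of it.

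Summed over each step, the folate, methionine, pyrimidine and IMP-forming enzymes were lower and the salvage pair higher in the KO-labelled library. The pyrimidine enzymes took 0.0253% of the counts in the KO-labelled library and 0.0407% in the WT-labelled library, a share 1.61-fold lower (1.53 to 1.68). The folate enzymes' share was 1.49-fold lower (1.43 to 1.54) and that of purine synthesis to IMP 1.36-fold lower (1.31 to 1.40). The shares of the methionine cycle (1.41-fold, 1.29 to 1.54), deoxynucleotide and kinase (1.22-fold, 1.17 to 1.26) and serine synthesis enzymes (1.20-fold, 1.12 to 1.28) were also lower, the last against the sign of its median log2 difference given below. The share of the AMP and GMP branches had a ratio of 1.02 (0.979 to 1.06). The salvage pair took 0.0710% of the counts in the KO-labelled library and 0.0416% in the WT-labelled library, 1.71-fold higher (1.65 to 1.77). Shares are of total counts. On the TMM scale the summed CPM was 1.42-fold lower for the pyrimidine, 1.31-fold for the folate, 1.25-fold for the methionine and 1.20-fold for the purine synthesis enzymes. It was only 1.07-fold lower for the deoxynucleotide and kinase genes and 1.06-fold lower for serine synthesis. It was 1.15-fold higher for the AMP and GMP branches and 1.93-fold higher for the salvage pair. Of the methionine enzymes Mtr alone was lower on this scale, with ratios of 1.01 for Ahcy and 1.09 for Mat2a. The sums carry no correction for exon length.

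The median log2 difference was -0.40 for the 4 pyrimidine enzymes, -0.36 for the 6 enzymes of purine synthesis to IMP, and -0.36 for the 2 methionine cycle enzymes that passed the level filter. It was -0.29 for the 6 folate enzymes and -0.17 for the 5 deoxynucleotide and kinase genes. The mean of these 5 genes had the other sign, at 0.029, and so did their median after the length and GC correction, at 0.30. The median was 0.12 for serine synthesis, with the opposite sign under total counts, 0.32 for the AMP and GMP branches and 0.83 for the salvage pair. Each median rests on few genes and is a description.

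Compared per kilobase of exon, the order of the members was much alike in the libraries. The highest were Aprt at 359 CPM per kilobase in the KO-labelled library and 170 in the WT-labelled library, Hprt at 136 and 91.1, and Shmt2 at 71.2 and 85.2. The lowest were Mat2a at 1.15 and 1.06 and Phgdh at 2.76 and 2.53. Spearman's rho of these levels between the libraries was 0.907 over the 33 members, which share libraries and annotation. The largest changes of place were those of Ctps, at place 22 in the KO-labelled library and 12 in the WT-labelled library, and of Mthfd1l, at places 16 and 7. Tk1 stood at place 13 in the KO-labelled library and 21 in the WT-labelled library.

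Enzymes that catalyse like reactions in the cytosol and the mitochondrion shifted against each other. The count ratio of cytosolic Shmt1 to mitochondrial Shmt2 was 0.117 in the KO-labelled library and 0.207 in the WT-labelled library, 1.76-fold lower (1.505 to 2.06). The ratio of Mthfd1l to Mthfd1 was 1.20 in the KO-labelled library and 2.20 in the WT-labelled library, 1.83-fold lower (1.59 to 2.10). The ratio of Mthfd2 to Mthfd1 was 0.546 in the KO-labelled library and 0.416 in the WT-labelled library, 1.31-fold higher (1.09 to 1.58). Thus the cytosolic member was the lower one of the Shmt pair and the mitochondrial member was the lower one of the Mthfd1 and Mthfd1l pair.

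The counts of other pathway genes can be set beside the shares of all measured genes that were lower (10.6%) or higher (12.1%) by 2-fold or more. Of 20 listed folate, glycine and other carbon-transfer genes, 14 passed the level filter, of which 5 were lower by 2-fold or more and 1 higher by 2-fold or more (median -0.63). Aldh1l1 and Mthfd2l, both among those lower, passed that filter only through the WT-labelled library, where they were high. After the length and GC correction 3 were lower and 2 higher by 2-fold or more. Slc19a1, the reduced folate carrier that also takes up methotrexate, had 25.9 CPM in the KO-labelled library and 62.6 CPM in the WT-labelled library, 2.42-fold lower (2.09 to 2.80). Aldh1l1, the formyltetrahydrofolate dehydrogenase, had 4 counts in the KO-labelled library and 178 in the WT-labelled library, 25.4-fold lower (9.73 to 94.1). The others lower were Fpgs, which traps folate in cells by adding glutamates (2.28-fold), Mthfd2l (2.26-fold) and Sfxn1, a mitochondrial serine carrier (2.08-fold). Mthfd2l and Sfxn1 came within 2-fold after the correction, at 1.90-fold and 1.51-fold lower. Ggh, which removes those glutamates, had 38.2 CPM in the KO-labelled library and 13.6 CPM in the WT-labelled library, 2.81-fold higher (2.36 to 3.35). Slc46a1, the proton-coupled folate carrier, was 1.69-fold higher (1.33 to 2.16). None of the 8 measured methionine, polyamine and transsulfuration genes, of 15 listed, was 2-fold apart (median -0.44); Sms and Mtap were 1.79-fold and 1.64-fold lower, and Amd1 and Mat2b 1.30-fold and 1.14-fold higher.

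Purine genes outside the members had both directions, with 3 of 20 measured higher by 2-fold or more, 3 lower by 2-fold or more and a median of 0.031. These numbers are near the shares of all measured genes. Xdh, xanthine oxidoreductase, an enzyme of purine breakdown, had 173 CPM in the KO-labelled library and 63.1 CPM in the WT-labelled library, 2.74-fold higher (2.53 to 2.97). Ak3, a mitochondrial adenylate kinase that uses GTP, was 8.98-fold higher (7.25 to 11.2) and Dguok, mitochondrial deoxyguanosine kinase, 2.08-fold higher (1.79 to 2.42). Prps2, which makes the ribose phosphate donor used by Ppat, had 23.0 CPM in the KO-labelled library and 51.8 CPM in the WT-labelled library, 2.25-fold lower (1.93 to 2.64), and 1.94-fold lower after the length and GC correction. Gmpr, GMP reductase, was 2.81-fold lower (2.15 to 3.71) and Ada, adenosine deaminase, 2.14-fold lower (1.86 to 2.48). After the correction 4 genes of the list were higher and 3 lower by 2-fold or more. Gda came to 2.11-fold higher and Itpa to 2.09-fold lower.

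Among pyrimidine and deoxynucleotide genes outside the members, 3 of 19 measured were higher by 2-fold or more and 1 lower by 2-fold or more (median -0.10, mean 0.045). Samhd1, the phosphohydrolase that degrades deoxynucleotides, had 310 CPM in the KO-labelled library and 83.3 CPM in the WT-labelled library, 3.72-fold higher (3.49 to 3.98). Nme3 and Nme6, members of the nucleoside diphosphate kinase family, were 2.49-fold and 2.22-fold higher, and came within 2-fold after the length and GC correction, at 1.38-fold and 1.89-fold higher. Rrm2b, the p53-inducible reductase subunit, had 72 counts in the KO-labelled library and 335 in the WT-labelled library, 2.65-fold lower (2.05 to 3.47). Uck2, a uridine and cytidine kinase, was 1.99-fold lower (1.85 to 2.13), at 121 CPM in the KO-labelled library and 240 CPM in the WT-labelled library.

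Genes that supply nitrogen and carbon to these pathways had 1 of 16 measured higher by 2-fold or more and 4 lower by 2-fold or more (median -0.25). Among those lower were the amino acid carrier genes Slc7a5 (2.60-fold), Slc38a1 (2.23-fold) and Slc1a5 (2.01-fold), the last a glutamine carrier. After the length and GC correction Slc38a1 was 1.59-fold and Slc1a5 1.92-fold lower, and Slc7a5 was the 1 gene of the list still lower by 2-fold or more. Higher was G6pdx, the entry of the oxidative pentose phosphate pathway that yields ribose phosphate and NADPH, at 479 CPM in the KO-labelled library and 176 CPM in the WT-labelled library, 2.73-fold (2.60 to 2.86). Pgd, the next dehydrogenase of that route, was 1.93-fold higher (1.78 to 2.09). After the length and GC correction it was 2.34-fold higher, and 2 genes of the list were higher by 2-fold or more.

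**Figure D4:**
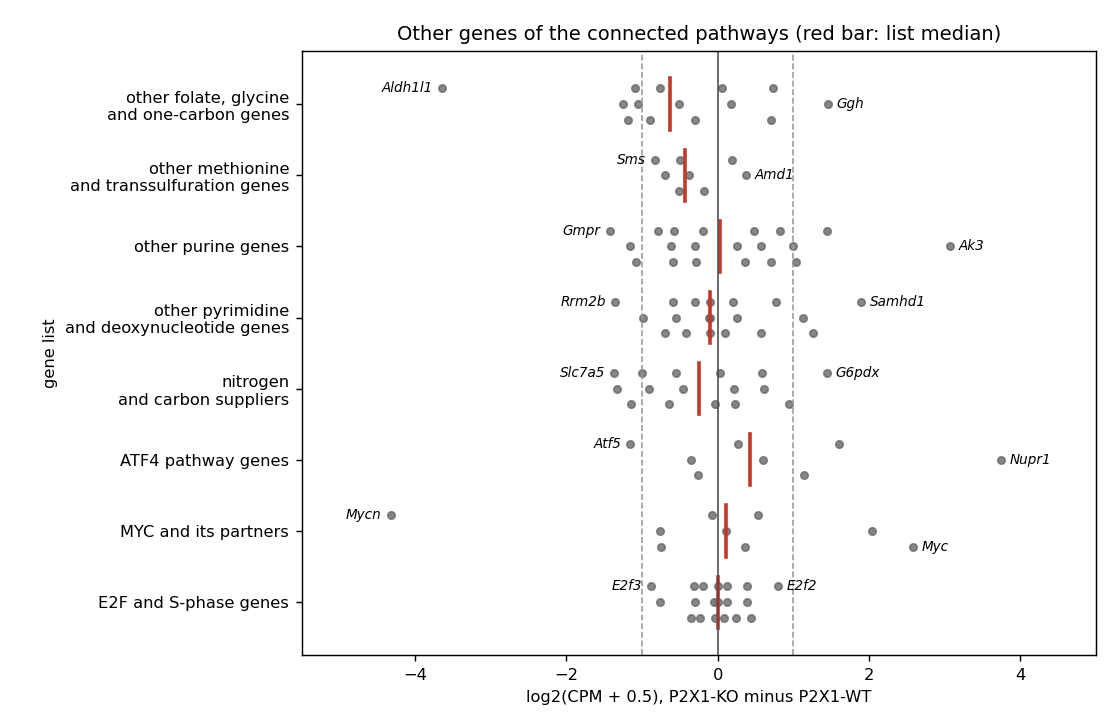
Log2 difference, log2(CPM + 0.5) in the KO-labelled library minus the WT-labelled library, of each measured gene in 8 lists of connected genes; each point is a gene, the red bar is the list median, dashed lines stand at 2-fold, and the lowest and highest gene of each list are named. The E2F and S-phase genes all lie within the dashed lines, whereas Mycn and Myc stand at the opposite ends of their list.

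Known transcriptional activators of these pathways did not share a direction. ATF4, an activator of serine synthesis genes, had 391 CPM of Atf4 in the KO-labelled library and 467 CPM in the WT-labelled library, 1.20-fold lower (1.15 to 1.25). Of 8 measured ATF4 pathway genes, 3 were higher by 2-fold or more, namely Nupr1, Cebpb and Ddit4, and 1, Atf5, was 2.25-fold lower (median 0.43). Nupr1 passed the level filter only through the KO-labelled library, where it was high. Of the 4 genes that did not pass it, Trib3 and Vldlr had fewer counts in the KO-labelled library. The others had more there, with 37 counts against 17 for Slc7a11 and 23 against 17 for Chac1. Ddit4 came within 2-fold after the length and GC correction, at 1.77-fold higher. Cebpb was 3.04-fold higher (2.88 to 3.22), and Nupr1 had 101 counts in the KO-labelled library and 6 in the WT-labelled library, 29.5-fold higher (13.1 to 82.4). MYC proteins activate many nucleotide synthesis genes. Myc had 137 CPM in the KO-labelled library and 22.4 CPM in the WT-labelled library, 6.08-fold higher (5.40 to 6.87), and Mycn had 29.6 CPM in the KO-labelled library and 602 CPM in the WT-labelled library, 20.3-fold lower (18.0 to 23.1). Of 9 measured genes of MYC and its partners, 2 were higher by 2-fold or more and 1 lower by 2-fold or more (median 0.11, mean -0.029), Mxd3, a MAX-binding repressor, being 4.43-fold higher and Mnt, another, 1.69-fold lower.

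Genes of S phase, which share their timing with Rrm2, Tyms and Tk1, were nearly level. Of 19 measured, 0 were 2-fold apart, with a median log2 difference of -0.00029; E2f2 was 1.75-fold and Pcna 1.31-fold higher, and E2f3 was 1.87-fold and Cdt1 1.70-fold lower.

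Promoter windows were found for 31 of the 33 members, all but Pfas and Dhodh, in RefSeq on GRCm38.p6. The 35 windows had a median GC content of 60.7% and a median of 21 CpG sites, beside 52.7% and 7 over all 32851 windows of the table. The MYC-type E-box CACGTG was present in the windows of 5 of 31 members (16.1%, beside 8.09% of 27025 genes), namely Atic, Impdh2, Nme1, Paics and Tyms, none of them among the members lower by 2-fold or more. CCAAT was present on either strand in 15 of 31 (48.4%, beside 41.1% of genes). An E2F-type motif, TTTCGCGC, TTTGGCGC or TTTCCCGC on either strand, was present in Ppat alone (3.23%, beside 2.12% of genes), and TGATGNAAN, the composite element read by ATF4, in 0 of 31 (beside 4.5% of genes). No base of a member's window belonged to more than 1 of these motifs. A match is a description of the letters, and the window is short.

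Other measures moved with the libraries. Markers of mature myeloid cells were higher in the KO-labelled library, with 10 of 11 measured neutrophil genes and 10 of 10 monocyte and macrophage genes higher by 2-fold or more. Of all measured genes 12.1% were that much higher, a share to set beside each list here. After the length and GC correction 9 of the 11 neutrophil genes were higher and 1 lower by 2-fold or more. Ngp came to 1.54-fold higher, while all 10 monocyte and macrophage genes stayed higher by 2-fold or more. Ly6g, of the neutrophil list, was 1.72-fold lower, or 2.26-fold lower after the correction, and passed the level filter only through the WT-labelled library. Fpr1, Retnlg, C1qa, C1qb, C1qc and Cx3cr1 passed it only through the KO-labelled library, where they were high. Their summed levels were 14185 CPM in the KO-labelled library and 3491 CPM in the WT-labelled library for the neutrophil list, and 5535 and 409 CPM for the monocyte list. Eosinophil, mast cell and basophil markers summed to 280 CPM in the KO-labelled library and 62.0 CPM in the WT-labelled library, with 4 of 6 measured higher by 2-fold or more and Ear1, Fcer1a and Tpsb2 at 0 in both. Within that list Prg2 had 129 CPM in the KO-labelled library and 0.513 CPM in the WT-labelled library, while Mcpt8 had 23.0 and 34.0 CPM, 1.48-fold lower. Prg2, Ear2 and Cpa3 passed the level filter only through the KO-labelled library, where they were high. Stromal markers summed to 250 CPM in the KO-labelled library and 95.1 CPM in the WT-labelled library, with 3 of 4 higher by 2-fold or more and Dcn and Lum at 0 in both. The collagen genes Col1a1, Col1a2 and Col3a1 summed to 203 CPM in the KO-labelled library and 0.962 CPM in the WT-labelled library, while Pdgfrb had 47.1 and 93.1 CPM, 1.98-fold lower. These collagen genes too passed the level filter only through the KO-labelled library. Of the 8 genes of the sorted progenitors, including Mpo and Elane, 0 were 2-fold apart. Their intervals lay above no change for 5 (35.9% of all genes) and below it for 3 (43.7% of all genes). Their summed levels were 7129 CPM in the KO-labelled library and 4425 CPM in the WT-labelled library. The log2 difference was -0.91 for Mpo and 0.85 for Elane, and -0.87 and 0.36 after the length and GC correction. T and NK cell markers summed to 1.13 CPM in the KO-labelled library and 2.18 CPM in the WT-labelled library, with 5 of 8 at 0 in both; erythroid markers summed to 2.14 and 0.962 CPM and megakaryocyte markers to 6.19 and 2.89 CPM. Of 8 B cell markers only Cd79b passed the level filter, 3.23-fold higher, and Ms4a1, Ebf1 and Pax5 were at 0 in both. The part of these cell markers in the differences of the members was not tested, and fewer cells of a type cannot be told apart from less RNA per cell.

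Exon length also moved with the differences. Spearman's rho between the log2 difference and exon length was -0.339 over the 32 members and -0.309 over 10005 genes with a known length, so genes with more exon bases stood lower in the KO-labelled library on average. After subtracting the median difference of genes of like length and GC content, the median of the members was -0.061, 3 members remained lower by 2-fold or more, namely Ctps, Mthfd1l and Shmt1, and 0 were higher by 2-fold or more.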

How the data were processed

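RNA was measured by bulk sequencing in 2 libraries, 1 per group, so no test between groups was possible. The authors deposited a table of raw counts per gene. Per the submitters' processing notes, HISAT2 2.0.4 and the mm10 build were used; no source at hand names the counting tool, annotation or strand setting. Counts were scaled with TMM in edgeR 4.0.16 (R 4.3.3) to effective library sizes of 8882591 for P2X1-KO and 15591519 for P2X1-WT. The ratio of CPM carries an exact Clopper-Pearson 95% interval, from the binomial of both counts given their sum. Reads are not independent molecules, so intervals cover counting error only. Genes averaging 5 CPM or more were counted as measured, with a pseudocount of 0.5 CPM for log2 differences. Exon length, GC content and overlaps came from GENCODE M21, which matched 95.4% of measured genes by symbol, and promoter windows from RefSeq (GRCm38.p6). The length and GC correction subtracted the median difference of genes in 20 equal bins of exon length, then of GC content. Another 27 entries whose names had become calendar dates were left unnamed. The steps were tested on simulated counts. Named genes outside the members are up to 2 per list and direction, ranked by the interval bound nearest to no change. Fpgs, Mthfd2l, Sfxn1, Dguok, Ada, Gda, Itpa, Nme2, Nme6, Slc1a5, Slc38a1, Ddit4, Trib3, Vldlr, Slc7a11 and Chac1 were named after their values were seen. So were the single marker genes given with values or for the level filter, other than Itgam and Kit. The members and lists were chosen with earlier results of these data known. Total-count, upper-quartile and median-of-ratios (DESeq2 1.42.0) scaling, other filters, pseudocounts and folds were tried as alternatives. A single gene of the lists is counted in its list but not reported here by name.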

Additional observations from a re-analysis of the deposited data

How the results depend on the processing

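With 1 library per group, no library could be left out and no replicate error exists. No paired analysis was possible because each group had 1 library. Values below are median log2 differences or numbers of members at least 2-fold apart. With total-count scaling the median of the members was -0.39 and 0 were 2-fold higher; by pathway step it was -0.047 for serine synthesis, -0.47 for folate, -0.53 for methionine, -0.54 for purine synthesis to IMP, 0.14 for the AMP and GMP branches, -0.58 for pyrimidine, -0.34 for deoxynucleotides and kinases and 0.65 for salvage. With upper-quartile scaling 2 members were 2-fold higher and 3 lower. After the length and GC correction the median of the members was -0.061, with 0 higher and 3 lower, and by step -0.18 for methionine, -0.21 for purine synthesis to IMP, -0.23 for pyrimidine, 0.30 for deoxynucleotides and kinases and 0.46 for salvage. A filter at 1 CPM or none, which admits Mat2a, gave 0.020 for the methionine cycle. With no filter 25 other pathway genes were 2-fold lower, against 15. A threshold of 1.5-fold gave 3 members higher. The summed share of the members was 0.786 times that of P2X1-WT without Aprt, against 0.877 with it. The cause of these shifts was not tested beyond what each setting changes. Median-of-ratios scaling and pseudocounts of 0.1 and 1 moved 0 of the 33 members by more than their counting interval. Total-count scaling moved 21 members that far, the length and GC correction 15 and upper-quartile scaling 2. Depth limits Phgdh, Mat2a and Dck most.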

Other observations

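Opposed enzymes were also set against each other within each library, in pairs chosen after the values were seen, which are descriptions that do not depend on scaling but can move with exon length; the pair of Paics and Ppat is given above. The count ratio of Ggh to Fpgs, which remove and add the glutamate tail of folate, was 1.03 in the KO-labelled library and 0.160 in the WT-labelled library, 6.41-fold higher (exact 95% interval 5.16 to 7.94). Ctps over its paralog Ctps2 was 0.418 in the KO-labelled library and 1.29 in the WT-labelled library, 3.09-fold lower (2.66 to 3.61), so Ctps was the more numerous of the pair in counts in the WT-labelled library and Ctps2 in the KO-labelled library.

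Salvage against the entry of synthesis gave ratios of Aprt to Ppat of 25.7 in the KO-labelled library and 6.06 in the WT-labelled library, 4.24-fold higher (3.60 to 5.02), and of Hprt to Ppat of 7.81 and 2.60, 3.01-fold higher (2.53 to 3.59). After the length and GC correction, a setting added after the data were seen, these were 2.98-fold and 1.99-fold higher. Xdh, a breakdown enzyme, over Pfas, a synthesis enzyme, was 5.80 in the KO-labelled library and 0.912 in the WT-labelled library, 6.36-fold higher (5.42 to 7.46). It is a ratio of single genes and does not describe breakdown or synthesis as a whole. Rrm2b over Rrm2 was 0.0970 in the KO-labelled library and 0.228 in the WT-labelled library, 2.35-fold lower (1.79 to 3.12), and Prps2 over Prps1 was 0.648 and 0.951, 1.47-fold lower (1.20 to 1.80). After the length and GC correction these ratios were 1.89-fold and 1.13-fold lower. Adssl1 over Adss was 1.76 in the KO-labelled library and 1.28 in the WT-labelled library, 1.37-fold higher (1.27 to 1.49), and 0.999 times as high after the length and GC correction. Myc over Mycn was 4.61 in the KO-labelled library and 0.0373 in the WT-labelled library, 124-fold higher (104 to 147).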
